A study of Mus musculus with 29 samples.

Results

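Angiogenin (Ang), ribonuclease 4 (Rnase4) and the ribonuclease inhibitor (Rnh1) were followed as 3 genes, picked by name, of the 12992 genes measured in mouse liver. The libraries came from 29 male C57BL/6 mice, with 1 library per mouse. In the whole-body cohort, 5 Maf1-/- mice, which lack Maf1 in all cells, were set against 7 Ctrl mice, all on chow. In the hepatocyte cohorts, Maf1hep-/- mice, in which an albumin-driven Cre deletes floxed Maf1 in hepatocytes only, were set against floxed Ctrl mice without Cre, with 4 and 4 mice on chow and 4 and 5 mice on the high fat (HF) diet. The young adult mice were put on their diet at 4 to 5 weeks of age, lard gave 60% of the calories of the HF diet, and all were fasted overnight and refed for 4 h before the liver was taken. The replicates are separate mice.

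Angiogenin is a secreted ribonuclease of the RNase A superfamily, known for promoting the growth of blood vessels and for cutting tRNAs in their anticodon loops under stress. RNase 4 is its secreted neighbour, with a preference for cutting after uridine, and both are made at high levels in the liver. The cytosolic inhibitor encoded by Rnh1 binds enzymes of this family very tightly and blocks them. MAF1, the protein removed in these mice, represses RNA polymerase III, the enzyme that makes tRNAs.

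Ang and Rnase4 lie on top of each other on the plus strand of chromosome 14. In GENCODE vM21 on GRCm38, Rnase4 spans 51091077 to 51106151 and Ang spans 51091150 to 51102009, so that Ang lies within Rnase4. They share 219 exonic bases, all in noncoding 5′ exons, and each then uses 1 coding exon of its own, of 435 coding bases in Ang and 444 in Rnase4. Rnh1 lies elsewhere, on the minus strand of chromosome 7 from 141160326 to 141172857, and no other gene overlaps its exons. RefSeq places tRNA genes just upstream of the ribonuclease pair, the nearest being n-TPtgg5, which ends 359 bp before the Rnase4 start, and n-TYgta10, which ends 1499 bp before it.

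**Figure D1:**
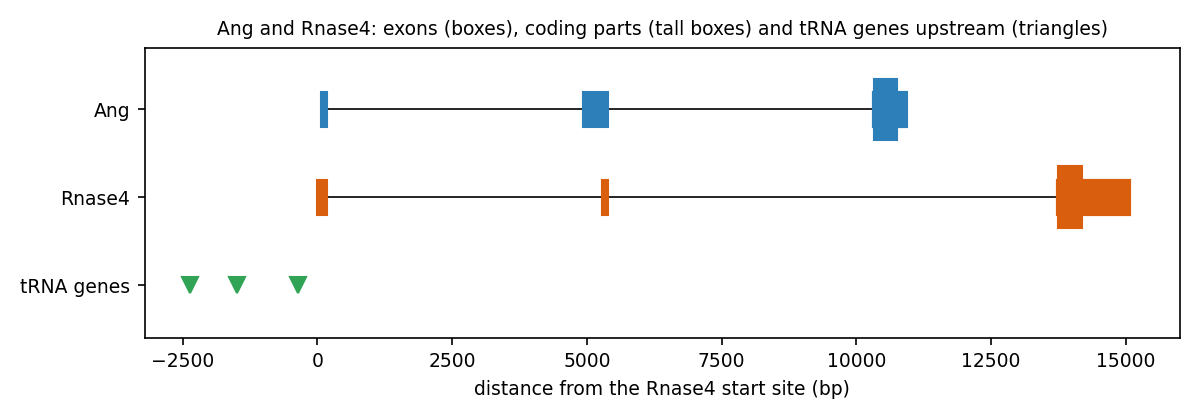
The x axis is the distance in bp from the Rnase4 start site, boxes are exons, tall boxes the coding parts and triangles the 3 nearest tRNA genes upstream. The first exons of Ang and Rnase4 overlap, and the coding exons do not.

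RefSeq (GRCm38.p6) gives both genes the same upstream start, and the 250 bases before it are shown because both ribonucleases share this promoter. The stretch is chr14:51090827-51091076 on the plus strand, and the capitals mark the letters CCAAT, 55 bases before the start.
Ang and Rnase4 promoter: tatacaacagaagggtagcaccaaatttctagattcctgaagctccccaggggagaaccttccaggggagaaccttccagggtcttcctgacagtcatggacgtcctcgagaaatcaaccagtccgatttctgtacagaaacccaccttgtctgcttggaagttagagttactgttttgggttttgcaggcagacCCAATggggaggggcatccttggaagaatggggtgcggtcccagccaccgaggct
CCAAT was searched on both strands and occurs in 33.8% of 32851 promoter windows of this length. The letters TATAAA (12.4% of windows), GGGCGG (32.7%) and CACGTG (6.02%) are not in this window. It is not the only start: RefSeq gives Rnase4 a second one, after chr14:51095750-51095999, a window that holds none of these letters. GENCODE likewise has a transcript of Ang that starts at 51096000 and one of Rnase4 that starts at 51096359.

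The coding exons are not shared, so reads there tell the ribonucleases apart, and a stretch of each is shown to let their likeness be seen. The capitals mark the codons of the signature that RNase A enzymes share, which starts at codon 63 of Ang and codon 68 of Rnase4. The stretches are chr14:51101560-51101640 and chr14:51104992-51105072 on the plus strand of GRCm38.
Ang: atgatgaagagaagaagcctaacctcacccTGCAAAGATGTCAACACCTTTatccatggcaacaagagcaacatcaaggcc
Rnase4: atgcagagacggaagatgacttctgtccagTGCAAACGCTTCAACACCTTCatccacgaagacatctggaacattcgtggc
Aligned without gaps, 43 of the 81 bases are identical (53.1%), and 16 of the 21 bases in capitals (76.2%).

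The deleted gene served as the check of the labels. Maf1 stood at 0.382 ± 0.417 CPM (SD, n = 5) in Maf1-/- livers and 8.72 ± 1.98 CPM (SD, n = 7) in their Ctrl, where CPM is the scaled count relative to all counts of the library. It stood at 3.44 ± 0.610 CPM in Maf1hep-/- livers and 17.3 ± 1.79 CPM in Ctrl on chow (SD, n = 4 each), and at 1.59 ± 0.186 CPM (SD, n = 4) in Maf1hep-/- livers and 16.6 ± 2.63 CPM (SD, n = 5) in Ctrl on HF. No knockout liver overlapped with the Ctrl livers of its cohort. Libraries held 25544816 to 32319706 counts on HF and 43564164 to 75682301 on chow, which gave 3199 to 10372 counts for Ang, 12702 to 42282 for Rnase4 and 1231 to 3336 for Rnh1. Of the marker lists, all 6 hepatocyte, 6 Kupffer cell, 5 endothelial, 5 stellate and 5 erythroid genes were measured, 3 of 4 cholangiocyte genes and 1 of 3 neutrophil genes, with none of those measured under 0.1 CPM throughout a group.

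Rnase4 was the most abundant of the 3 genes and Rnh1 the least. Per kilobase of exon, Rnase4 had 425 ± 22.7 CPM per kb in HF-fed Ctrl livers (SD, n = 5), Ang 152 ± 18.9 and Rnh1 18.1 ± 2.66. Those levels ranked Rnase4 at place 80, Ang at place 199 and Rnh1 at place 1478 of 12983 genes with a length. The 219 shared bases count in the length of both ribonucleases.

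Ang and Rnase4 were both lower in Maf1hep-/- livers than in Ctrl livers, most clearly on HF, by about the same factor. In HF-fed Maf1hep-/- livers Ang stood at 96.2, 127, 136 and 101 CPM, against 165, 202.4, 166, 167 and 212 CPM in Ctrl livers. Every Maf1hep-/- liver was below every Ctrl liver. The fold was 0.625, with a 95% interval of 0.512 to 0.762 and a log2 fold change of -0.68 ± 0.13 (SE). An exact permutation test (two-sided) gave p = 0.00794, the smallest p that 4 against 5 mice allow.

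Rnase4 in HF-fed Maf1hep-/- livers stood at 399, 397, 628 and 392.2 CPM, against 669, 740.4, 676, 660.2 and 729.7 CPM in Ctrl livers. The groups did not overlap, but Maf1hep-/- replicate 3 lay close to the Ctrl mice while the other 3 lay together far below. The fold was 0.649 (95% interval 0.513 to 0.821), the log2 fold change -0.62 ± 0.15 (SE), and the exact permutation p again 0.00794. Of 12378 genes tested in this cohort, 0.856% had every knockout mouse below every Ctrl mouse, and 2.74% were lower at an unadjusted p under 0.05.

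Neither ribonuclease passed the test across all genes on HF. edgeR's quasi-likelihood test with Benjamini-Hochberg adjustment gave Ang an adjusted p of 0.235 and Rnase4 0.472, and it called 2 genes in all (0.0162% of those tested), Maf1 and Gm35339 (Gm35339 was named after its values were seen). DESeq2, which called 56 genes there, gave Ang an adjusted p of 0.000701 and Rnase4 0.0173. Leaving out each of the 9 mice in turn gave Rnase4 an edgeR adjusted p of 0.0375 to 0.9997. Only the fit without Maf1hep-/- replicate 3 passed, with a log2 fold change of -0.83. For Ang these 9 fits gave 0.144 to 0.972, and 0 passed. Blocking on replicate number, which is no established pairing, made edgeR call 45 genes in place of 2, and the adjusted p was 0.0578 for Ang and 0.132 for Rnase4.

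The summed hepatocyte markers were higher in the HF-fed Maf1hep-/- livers, but not on chow. Their sum was 80538 to 91949 CPM in HF-fed Maf1hep-/- livers and 64154 to 77337 CPM in Ctrl livers, without overlap. edgeR called 0 of the 6 genes, against 0.0162% of all genes. The summed Kupffer cell markers overlapped, at 137 to 267 CPM in Maf1hep-/- livers and 152 to 226 CPM in Ctrl livers. On chow the hepatocyte sums overlapped, at 63777 to 81897 CPM in Maf1hep-/- livers and 71697 to 79329 CPM in Ctrl livers. There 5 of the 6 hepatocyte genes had a log2 fold change below 0 (median -0.12), against 53.1% of all genes. On HF 0 of the 6 were below 0 (median 0.19), against 50.8% of all genes. Of the other lists on HF, 0 of 5 erythroid genes (median 1.49) and 2 of 6 Kupffer cell genes (0.27) were below 0. So were 3 of 5 endothelial (-0.11), 2 of 5 stellate (0.07) and 1 of 3 cholangiocyte genes (0.09), with 0 called. The erythroid sums overlapped, at 58.1 to 151 CPM in Maf1hep-/- livers and 54.9 to 95.2 CPM in Ctrl livers. In whole liver, fewer cells of a type and less RNA per cell cannot be told apart, and the part of cell makeup in the lower Ang and Rnase4 was not tested.

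**Figure D2:**
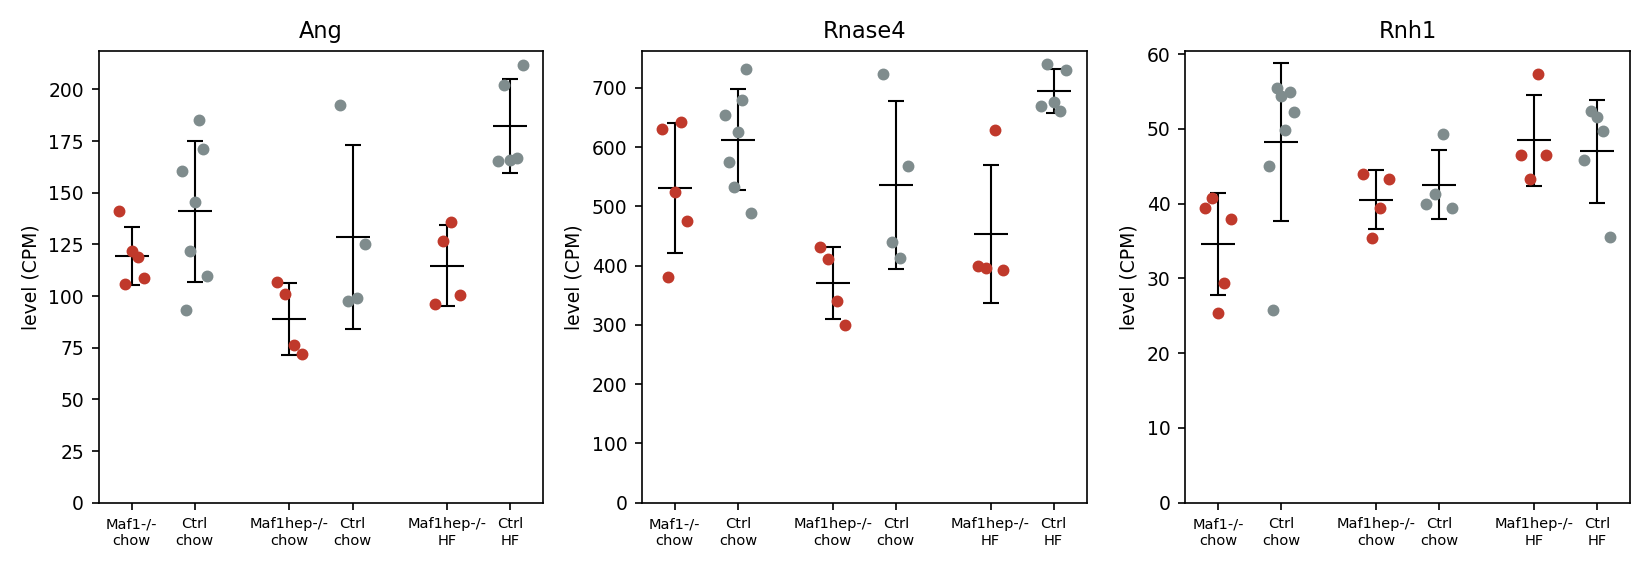
Points are mice, horizontal marks and bars the mean ± SD, and the y axis the level in CPM of Ang, Rnase4 and Rnh1 in the 6 groups. On HF all 4 Maf1hep-/- livers lie below the 5 Ctrl livers for Ang and Rnase4, whereas Rnh1 overlaps in every cohort.

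On chow the mean of both genes was also lower in Maf1hep-/- livers, with overlap, and the size of the difference depended on 1 Ctrl mouse. Ang stood at 107, 101, 76.3 and 72.2 CPM in Chow-fed Maf1hep-/- livers, against 192, 97.8, 98.9 and 125 CPM in Ctrl livers. Ctrl replicate 1 was far above the others, Ctrl replicates 2 and 3 lay within the range of the Maf1hep-/- mice, and Ctrl replicate 4 lay above it. The fold was 0.691 (95% interval 0.487 to 0.981), with an unadjusted edgeR p of 0.0405, an adjusted p of 0.997 and an exact permutation p of 0.171. Without Ctrl replicate 1 the log2 fold change of Ang was -0.27, against -0.53 with all mice.

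Rnase4 stood at 432, 411, 340.0 and 300.4 CPM in Chow-fed Maf1hep-/- livers, against 724, 440.5, 413 and 567 CPM in Ctrl livers. The highest Maf1hep-/- liver lay above the lowest Ctrl liver, and the other 3 lay below all Ctrl livers. The fold was 0.690 (95% interval 0.515 to 0.925), with an unadjusted edgeR p of 0.0183, an adjusted p of 0.997 and an exact permutation p of 0.0571, where 4 against 4 mice cannot go below 0.0286. Without Ctrl replicate 1 the log2 fold change of Rnase4 was -0.36, against -0.54 with all mice. In this cohort 0.907% of 12570 genes were lower at an unadjusted p under 0.05, 0.756% had all knockout mice below all Ctrl mice, and edgeR called 2 genes (0.0159%), again Maf1 and Gm35339.

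The difference was smaller in the whole-body cohort and lay within the spread between mice. Ang stood at 141, 106, 122, 119 and 109 CPM in Maf1-/- livers, against a lowest of 93.1, a median of 145 and a highest of 185 CPM in 7 Ctrl livers. All 5 Maf1-/- livers lay within the Ctrl range. The log2 fold change was -0.21 ± 0.16 (SE), with an edgeR adjusted p of 0.381 and an exact permutation p of 0.254, and it was -0.13 without Ctrl replicate 5.

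Rnase4 stood at 630.2, 381, 524, 642 and 475 CPM in Maf1-/- livers, against a lowest of 489, a median of 624.9 and a highest of 732 CPM in Ctrl livers. Maf1-/- replicates 2 and 5 fell below the Ctrl range. The log2 fold change was -0.17 ± 0.15 (SE), with an edgeR adjusted p of 0.441 and an exact permutation p of 0.168, and it was -0.07 without Maf1-/- replicate 2. Here 15.4% of 12796 genes were lower at an unadjusted p under 0.05, 0.211% had all Maf1-/- mice below all Ctrl mice, and edgeR called 2 genes (0.0156%), once more Maf1 and Gm35339.

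Over the 3 cohorts in 1 fit with cohort as a term, Rnase4 had a log2 fold change of -0.42 ± 0.10 (SE) and Ang one of -0.45 ± 0.11. By p they held ranks 3 and 7 of 12992 genes, with unadjusted p of 0.000217 and 0.000298 and an adjusted p of 0.296 for both, while edgeR called 2 genes (0.0154%), the same pair as in each cohort. At an unadjusted p under 0.05, 7.66% of the genes were lower. An exact permutation of genotype within the cohorts, over 6985440 arrangements, gave p = 0.000200 for Rnase4 and 0.000597 for Ang (two-sided). Both genes had a lower mean in the knockouts of each cohort.

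**Figure D3:**
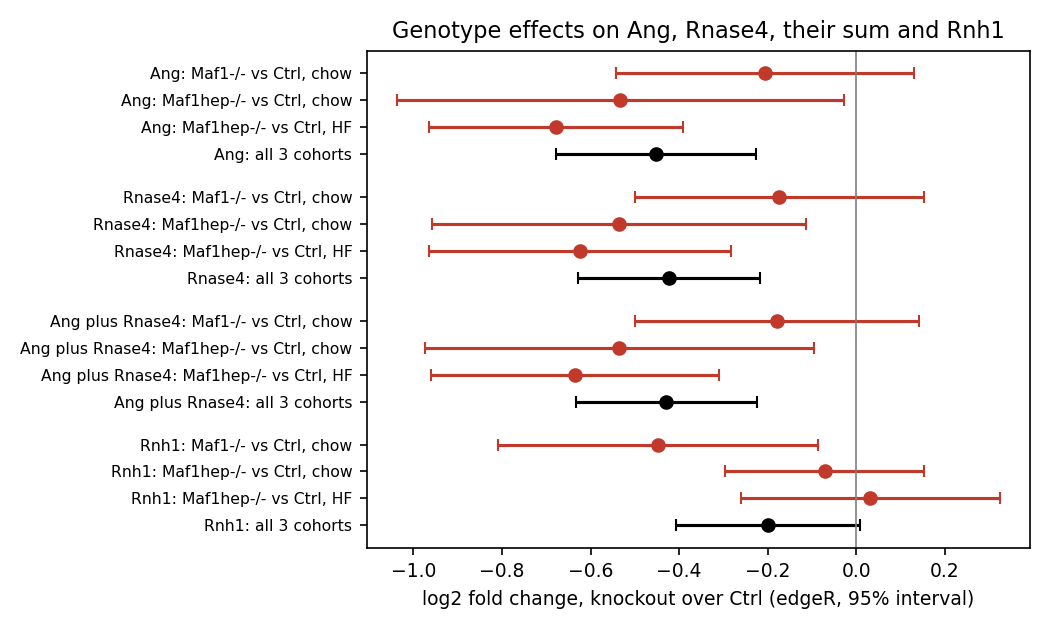
The x axis is the log2 fold change of knockout over Ctrl with its 95% interval from edgeR, for Ang, Rnase4, their sum and Rnh1 in each cohort and in all 3 together. The intervals of Ang, Rnase4 and the sum lie below 0 in both hepatocyte cohorts and reach over 0 in the whole-body cohort.

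Since reads from the shared exons can be given to either gene, the sum of both was tested as well. The sum stood at 495, 523, 764 and 493 CPM in HF-fed Maf1hep-/- livers, against 834, 943, 842, 827 and 941 CPM in Ctrl livers. Its fold was 0.644 (95% interval 0.514 to 0.807), with an edgeR adjusted p of 0.454. On chow its fold was 0.690 (0.509 to 0.936) in the hepatocyte cohort and 0.883 (0.707 to 1.10) in the whole-body cohort.

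The share of Ang in the sum did not move detectably with genotype. It averaged 20.5% ± 2.71 (SD, n = 4) in HF-fed Maf1hep-/- livers and 20.7% ± 1.21 (SD, n = 5) in Ctrl livers, with an exact permutation p of 0.873. On chow it was 19.3% ± 0.677 in Maf1hep-/- livers and 19.1% ± 1.36 in Ctrl livers (SD, n = 4 each, exact permutation p = 0.714). It was 18.6% ± 2.18 (SD, n = 5) in Maf1-/- livers and 18.5% ± 2.28 (SD, n = 7) in their Ctrl (exact permutation p = 0.933). Adjusted over 5 comparisons of the share, each of these p was 0.933.

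Ang and Rnase4 also varied together from mouse to mouse. After the mean of each of the 6 groups was taken off, their log2 levels had r = 0.80 and rho = 0.84 over 29 mice (permutation within groups, p = 1e-05, the smallest that 100000 permutations can give, and 3e-05 adjusted over 3 pairs of genes). Without the 2 mice farthest from the median of Ang, r was 0.81, and within the cohorts it was 0.69 over the whole-body mice, 0.98 over the hepatocyte cohort on chow and 0.68 on HF. The 219 shared bases and the common library enter both levels. Rnh1 had r = 0.17 with Ang and -0.06 with Rnase4, with rho = 0.02 and -0.15 and adjusted permutation p of 0.747 and 0.762. Without the 2 farthest mice these were -0.10 and -0.14, and within cohorts they ran from -0.53 to 0.44.

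**Figure D4:**
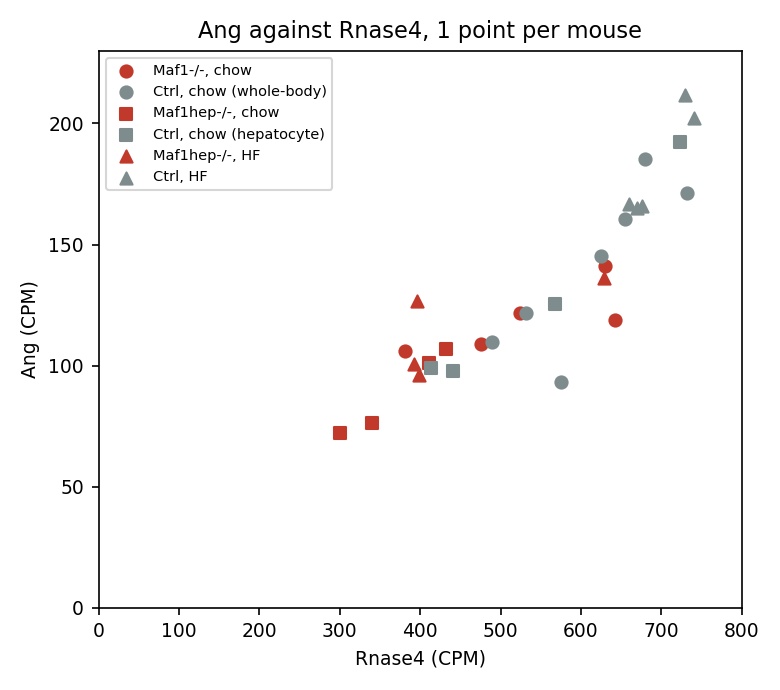
Each point is a mouse, with Rnase4 on the x axis and Ang on the y axis, both in CPM, and colour and shape give the group. Mice high in Rnase4 are high in Ang in every cohort, and the HF-fed Ctrl livers lie at the upper end.

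As a description of likeness, the 5 genes whose group-centred log2 levels followed each member most closely were taken from 7320 genes with a mean of at least 10 CPM over 29 mice. Rnase4 itself came first for Ang, followed by Ptpn1 (r = 0.78), Itih4 (0.74), Lcn2 (0.73) and Adam9 (0.72). Ncald came first for Rnase4 (r = 0.86), then Ang (0.80), Adam9 (0.79), Fgg (0.74) and St6gal1 (0.72). For the sum they were Ncald (0.84), Adam9 (0.80), Fgg (0.74), Fga (0.73) and Saa4 (0.71). Asgr1 (r = 0.97), Uqcr10 (0.96), Ndufv1 (0.96), Ap2s1 (0.96) and Prdx5 (0.96) led for Rnh1, and all of them lie between 51.6% and 56.7% GC, against a median of 49.1%.

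The inhibitor showed no detectable difference in the hepatocyte cohorts. Rnh1 stood at 46.5, 43.4, 57.4 and 46.5 CPM in HF-fed Maf1hep-/- livers, against 45.8, 52.4, 51.6, 49.7 and 35.5 CPM in Ctrl livers. The groups overlapped widely, and the log2 fold change was 0.03 with a 95% interval of -0.26 to 0.32. On chow Rnh1 stood at 43.9, 35.4, 39.5 and 43.3 CPM in Maf1hep-/- livers, against 40.0, 41.4, 49.3 and 39.4 CPM in Ctrl livers. The log2 fold change there was -0.07, with an interval of -0.30 to 0.15, and the edgeR adjusted p were 0.982 on HF and 0.997 on chow.

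The ratio of the inhibitor to the ribonucleases it blocks was higher in HF-fed Maf1hep-/- livers, mostly because the sum was lower. The log2 ratio of Rnh1 to the sum was -3.54 ± 0.16 (SD, n = 4) in HF-fed Maf1hep-/- livers and -4.23 ± 0.29 (SD, n = 5) in Ctrl livers, without overlap. An exact permutation test (two-sided) gave p = 0.00794 and 0.0397 adjusted over 5 comparisons. Ang, Rnase4 and the sum alone each had the same p and adjusted p in this test. The log2 difference was -0.65 for the sum and 0.05 for Rnh1, so the ratio mostly restates the sum. On chow the ratio was -3.49 ± 0.32 in Maf1hep-/- livers and -3.93 ± 0.50 in Ctrl livers (SD, n = 4 each, exact permutation p = 0.200). For the whole-body mice it was -4.24 ± 0.48 (SD, n = 5) in Maf1-/- livers and -3.99 ± 0.41 (SD, n = 7) in Ctrl livers (exact permutation p = 0.347). Over the 3 cohorts the exact permutation p of the ratio was 0.0743. The ratio is one of read counts, not of molecules per length or of proteins.

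In the whole-body cohort Rnh1 was lower on average in Maf1-/- livers, though not past the threshold. It stood at 39.5, 40.8, 25.4, 29.3 and 37.9 CPM in Maf1-/- livers, against a lowest of 25.8, a median of 52.3 and a highest of 55.4 CPM in Ctrl livers. Of the Ctrl mice replicate 2 reached into the Maf1-/- range. The log2 fold change was -0.45 ± 0.17 (SE), with an edgeR adjusted p of 0.157 and an exact permutation p of 0.0593. Without Ctrl replicate 2 the log2 fold change was -0.54 and the edgeR adjusted p 0.00641. That was the only 1 of 12 fits without a mouse that passed, with adjusted p up to 0.346 in the others. How many of all genes passed in that fit was not counted, so the call cannot be read as particular to Rnh1.

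The level of Rnh1 moved with the GC content of what each library held. A GC score was taken per library as the median log2 deviation, from the cohort's mean, of the tenth of genes with the highest GC content (57.2% or more). Rnh1 has 53.8% GC, Ang 48.7% and Rnase4 46.0%. The score was -0.498 and -0.524 in Maf1-/- replicates 3 and 4 and -0.580 in Ctrl replicate 2, the same 3 mice that were lowest in Rnh1. Over the 12 mice Rnh1 and the score had r = 0.95 and rho = 0.90 (permutation p = 4e-05 and 0.000250, and 0.000360 for r adjusted over 9 relations), and r = 0.91 without the 2 farthest mice. That permutation moved mice across genotypes. Among the 7 Ctrl mice alone r was 0.92 and rho 0.64 (exact permutation p = 0.0462 and 0.139), but 0.00034 without the 2 farthest mice, so that relation rested on them.

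With the GC score as a covariate, an alternative chosen after seeing the data, the whole-body log2 fold change of Rnh1 was -0.07 with an edgeR adjusted p of 0.959. The score itself went with genotype there, at -0.524 to 0.152 in Maf1-/- mice and 0.110 to 0.508 in Ctrl mice other than replicate 2. The covariate thus also takes up genotype, and for Rnh1 the 2 cannot be told apart. Genes at an unadjusted edgeR p under 0.05 went from 3359 to 691 with it. Under the covariate Ang and Rnase4 had log2 fold changes of -0.68 and -0.63 on HF, -0.37 and -0.43 in the hepatocyte cohort on chow, and -0.12 and -0.28 in the whole-body cohort. In the hepatocyte cohorts the scores ran from -0.238 to 0.185, and r between Rnh1 and the score was 0.04 on chow and 0.64 on HF, where it was 0.01 without the 2 farthest mice.

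**Figure D5:**
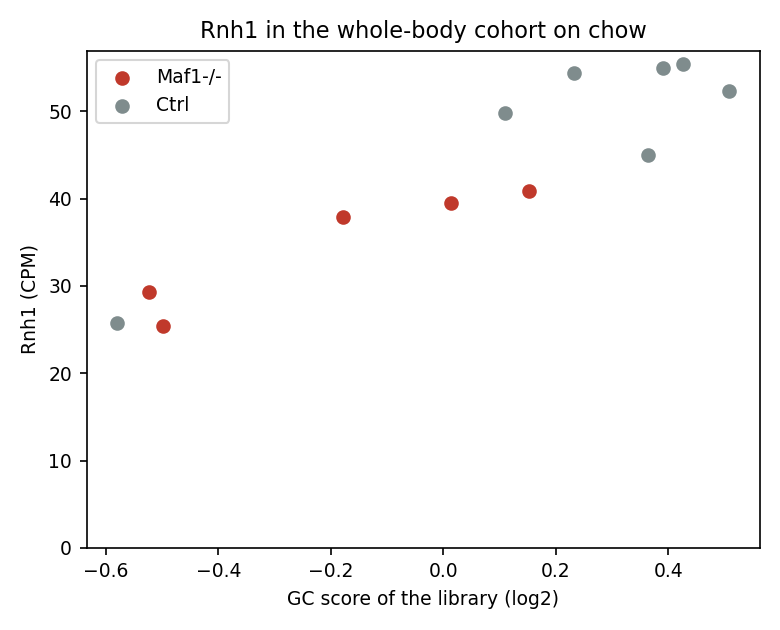
The x axis is the GC score of the library (log2), the y axis Rnh1 in CPM, and each point a mouse of the whole-body cohort. The 3 mice with scores under -0.4, 2 Maf1-/- and 1 Ctrl, have the lowest Rnh1.

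Whether genotype acted differently by diet or by kind of deletion was tested directly. The interaction of genotype and diet was -0.14 ± 0.27 for Ang, -0.09 ± 0.25 for Rnase4 and 0.11 ± 0.17 for Rnh1 (log2, SE). The interaction of genotype and deletion on chow, whole-body minus hepatocyte, was 0.30 ± 0.29 for Ang, 0.34 ± 0.25 for Rnase4 and -0.40 ± 0.25 for Rnh1. None of these passed the test, and the intervals, -0.71 to 0.43 for Ang by diet and -0.30 to 0.90 by deletion, leave room for differences as large as the effects themselves. Without Chow-fed Ctrl replicate 1 of the hepatocyte line, the interaction was -0.40 by diet and 0.04 by deletion for Ang, and -0.27 and 0.15 for Rnase4. Over all genes edgeR called 0 in either interaction (0%), with 599 and 1587 genes at an unadjusted p under 0.05 and 11 and 2 genes called by DESeq2.

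Mean levels on HF lay above those on chow, but diet cannot be told apart from sequencing and counting here. Ang averaged 115 ± 19.5 CPM in HF-fed and 89.0 ± 17.3 CPM in Chow-fed Maf1hep-/- livers (SD, n = 4 each), and 182 ± 22.8 CPM (SD, n = 5) in HF-fed and 129 ± 44.3 CPM (SD, n = 4) in Chow-fed Ctrl livers. Among Ctrl livers Ang had a log2 fold change of 0.51 ± 0.19 (SE) and an edgeR adjusted p of 0.0288, which 53.6% of all genes also passed. Rnase4 had 0.38 ± 0.17 (adjusted p = 0.0716) and Rnh1 0.15 ± 0.12 (0.285). Among Maf1hep-/- livers the log2 fold changes were 0.37 for Ang, 0.29 for Rnase4 and 0.26 for Rnh1, with adjusted p of 0.131, 0.192 and 0.0941, where 46.9% of genes passed. The call of Ang was lost when HF-fed Ctrl replicate 2 or 5, or Chow-fed Ctrl replicate 2, 3 or 4, was left out, with a lowest log2 fold change of 0.39 and a highest adjusted p of 0.110.

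The HF libraries were sequenced at 150 cycles, and their values were whole for Ang and Rnase4 in 9 of 9 libraries, against 0 of 20 on chow. For Rnh1 they were whole in all 29. Of 1182 genes that share exon bases with another gene on their strand, 20.5% were over 4-fold lower in HF-fed than in Chow-fed Ctrl livers, against 5.26% of 11779 genes that share none. Over all genes, 93 had at least 5 CPM in every Chow-fed mouse and under 0.5 CPM in every HF-fed mouse, and 43 of them (46.2%) share exon bases. How reads of the 219 bases shared by Ang and Rnase4 were counted on HF was not tested, and every genotype comparison stays within a cohort or has cohort as a term.

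Little of the rest of the RNase A superfamily was measured. Of 19 listed genes 2 were measured, Ear2, an eosinophil-associated ribonuclease, and Rnase6, a ribonuclease of myeloid cells. Across the 3 cohorts Ear2 had a log2 fold change of 0.32 (edgeR adjusted p = 0.350) and Rnase6 one of 0.39 (0.362). Ear2 averaged 2.92 CPM in HF-fed Maf1hep-/- livers and 2.32 CPM in Ctrl livers, and Rnase6 0.909 CPM in Maf1hep-/- livers and 0.984 CPM in Ctrl livers.

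No gene tied to angiogenin or to the handling of tRNA and its cut pieces passed the test of genotype. All 12 were measured, with 0 called across the 3 cohorts, where 0.0154% of all genes were called. Their median log2 fold change was -0.04, against -0.01 over all genes. Sdc4, a cell surface proteoglycan, had -0.23 (edgeR adjusted p = 0.335), Trdmt1, a tRNA methyltransferase, 0.25 (0.350), Elac2, which trims the 3′ ends of tRNA precursors, -0.10 (0.371), and Plxnb2, a receptor for angiogenin, -0.24 (0.401). Among whole-body mice 3 of the 12 were lower at an unadjusted p under 0.05, where 15.4% of all genes were. There 0 of the 12 were called, against 0.0156% of all genes. Among Ctrl livers, HF against chow, 2 were called higher and 5 lower, where 53.6% of all genes were called in either direction. Of those 5, Rnaset2a and Rnaset2b, a pair of RNase T2 genes chosen after their values were seen, averaged 0.376 and 0.356 CPM in HF-fed Ctrl livers, against 2.06 and 75.4 CPM in Chow-fed Ctrl livers. For this pair too, diet cannot be told apart from sequencing and counting.

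No measured neighbour of the members passed the test of genotype, which 0.0154% of all genes passed across the cohorts. Within 200 kb of Ang 5 other genes were measured and 0 were called across the cohorts, with a median log2 fold change of 0.02. Rnase6 is one of them, and of the others Apex1, a DNA repair enzyme, had -0.08, Tmem55b -0.08 and Osgep, which modifies tRNA, 0.04. Within 200 kb of Rnh1 15 genes were measured and 0 were called, with 14 of 15 below 0 and a median of -0.12. Over all genes 52.5% were below 0, with a median of -0.01. Among whole-body mice 13 of the 15 were below 0, with a median of -0.24, against 49.7% and 0.0030 over all genes. In the hepatocyte cohort on chow 5 of the 14 tested were below 0 (median 0.06), against 53.1% of all genes. On HF 8 of the 14 tested were below 0 (median -0.06), against 50.8% of all genes. Hras, a small GTPase, had -0.17 across the cohorts, Gm5905 -0.21, Tmem80 -0.12 and Sigirr, a receptor of the interleukin-1 family, -0.24. Gm5905 averaged 0.0729 CPM in HF-fed Maf1hep-/- livers and 0.0737 CPM in Ctrl livers, against 7.04 and 7.97 CPM on chow. Pnp, near Ang and named after its values were seen, averaged 0 CPM in both HF-fed groups, against 104 and 108 CPM on chow. Neither Gm5905 nor Pnp was tested within the HF cohort, and for both diet cannot be told apart from sequencing and counting.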

How the data were processed

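The authors trimmed reads with TrimGalore, aligned them to mm10 with STAR and estimated counts per gene with RSEM. The deposited values are these expected counts, not scaled, and the submitters' processing notes name edgeR 3.32.1 and limma. Counts were rounded. In R 4.3.3, genes reaching 1 CPM in any 1 library of a comparison were scaled by TMM and tested with edgeR 4.0.16 (quasi-likelihood), with Benjamini-Hochberg adjustment over all genes and a threshold of 0.05. For the sum, the rows of Ang and Rnase4 were added before the fit. Levels per mouse are CPM after TMM over all 29 libraries, and exact permutation tests used their log2 values, the share or the ratio. Likeness used log2 CPM with a prior count of 2. Alternatives were RLE, library totals, no filter, filterByExpr, DESeq2 1.42.0, limma 3.58.1 voom with 0 to 3 RUVr factors, a replicate block, all mice in 1 fit, each mouse or cohort left out, and the GC score. RUVr factors were added only in the genotype fits of single cohorts. Named genes were the members, Maf1, up to 4 of each list by the p across cohorts and the 5 most alike, besides those marked as named or chosen after their values were seen. Members and lists were chosen with earlier results of these data known. Same-numbered mice of the HF cohort correlated in their deviations at 0.367, 0.102, 0.231 and 0.246. For Maf1hep-/- replicates 2 and 3 the closest Ctrl mice were replicates 5 and 1, and the authors describe their data as unpaired. The number is thus no established pairing, and the block is only an alternative. Any 2 libraries of a group differed by far more than sampling noise, with a chi-square of at least 29.2 per degree of freedom.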

Additional observations from a re-analysis of the deposited data

Results flagged for a closer look

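Of 36 combinations of group and quantity checked for a mouse that stands apart from its group, 5 did, where chance gives about 1 in 20, and the quantities are not independent. HF-fed Maf1hep-/- replicate 3 was the highest of its 4 in Rnase4, at 628 CPM, and in the sum of Ang and Rnase4, at 764 CPM. Ctrl replicate 2 of the whole-body cohort was the lowest of 7 in Rnh1, at 25.8 CPM, and in the share of Ang, at 13.9%. HF-fed Ctrl replicate 5 had the lowest log2 ratio of Rnh1 to the sum of its 5, at -4.73.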

How the results depend on the processing

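Of 894 alternative values for 42 results, 846 kept their direction and their side of the threshold, 15 reversed, 6 lost and 27 gained the threshold. In the fit across the 3 cohorts, no filter and filterByExpr kept the same 12992 genes as the main filter, so those alternatives could not differ from it. On HF, the log2 fold change of Ang was -0.68 with DESeq2 and -0.69 with 3 RUVr factors, both called, and with DESeq2 Rnase4 was called at -0.62 and the sum at -0.63. In the whole-body cohort Rnh1 was called at -0.44, -0.44 and -0.43 with 1, 2 and 3 RUVr factors and at -0.48 with all 29 mice in 1 fit, where 4299, 5271, 6131 and 2266 genes were called in place of 2, against 314 with DESeq2. On HF the counts were 56 with DESeq2, 3, 11 and 175 with the RUVr factors, 4 in 1 fit of all mice and 45 under the block, against 2, and in the hepatocyte cohort on chow 5 with 3 RUVr factors against 2. DESeq2 called 11 and 2 genes for the interactions with diet and deletion, against 0. Rnh1 on HF reversed to -0.067 under the replicate block and -0.023 with the GC score, and its interaction with deletion to 0.047 with the GC score. Library totals moved the median of all genes between diets to 0.35 in Maf1hep-/- and 0.41 in Ctrl (6392 higher and 1926 lower calls, and 7171 and 2003, against 2822 and 3261, and 3279 and 3675). Under them the log2 fold changes of HF over chow were called at 0.69 for Ang, 0.61 for Rnase4, 0.59 for Rnh1 and 0.63 for the sum in Maf1hep-/-, and at 0.92 for Ang, 0.78 for Rnase4, 0.55 for Rnh1 and 0.81 for the sum in Ctrl. Among Ctrl, the sum was called at 0.40 with DESeq2 and 0.45 with limma-voom, and Rnase4 at 0.42 with limma-voom. The replicate block gave Rnh1 0.25 in Maf1hep-/- and 0.25 in Ctrl, both called, and Ang 0.47 in Ctrl, no longer called. Same-numbered mice correlated at -0.566 to 0.327 on chow, so the number was not read as a pairing there either, and the block called 1 gene in place of 2 in the whole-body cohort.

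Leaving out each mouse in turn gave -0.54 to -0.35 for Rnh1 in the whole-body cohort, -0.11 to 0.0056 in the hepatocyte cohort on chow and -0.065 to 0.090 on HF, and -0.83 to -0.56 for Rnase4 on HF. It gave -0.28 to -0.13 for Ang and -0.25 to -0.07 for Rnase4 in the whole-body cohort, and -0.64 to -0.27 and -0.64 to -0.36 in the hepatocyte cohort on chow. HF over chow ranged from 0.17 to 0.31 for Rnh1 in Maf1hep-/-, and in Ctrl from 0.39 to 0.77 for Ang, 0.26 to 0.56 for Rnase4 and 0.29 to 0.60 for the sum. The interaction of genotype and diet ranged from -0.40 to -0.03 for Ang, -0.28 to 0.019 for Rnase4 and -0.29 to 0.0075 for the sum, and that of genotype and deletion from 0.04 to 0.44 for Ang and 0.15 to 0.48 for Rnase4. The difference in the share of Ang ranged from -0.688 to 0.848 percentage points in the whole-body cohort, -0.180 to 0.790 in the hepatocyte cohort on chow and -1.52 to 0.617 on HF. Across the 3 cohorts no alternative fit called Ang, Rnase4, Rnh1 or the sum, but RUVr factors were not tried there. The causes of these shifts were not tested. Depth did not limit the members, the least being 1231 counts, for Rnh1.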
